A study of Mus musculus with 55 samples.

Results

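The genes described here are 10 core genes of the step from G1 into S phase of the cell cycle, read across 10 sorted populations of mouse liver with and without partial hepatectomy (PH). They are the D-type cyclins Ccnd1, Ccnd2 and Ccnd3, the E-type cyclins Ccne1 and Ccne2, the kinases Cdk4 and Cdk6, and the Cip/Kip inhibitors Cdkn1a (p21), Cdkn1b (p27) and Cdkn1c (p57). They were taken by symbol from a table of 24478 symbols, where 16 rows carried a member's symbol. Where a symbol had several rows, the one with the largest average FPKM stands for it. The other rows of a symbol correlated with the row used at 0.999 or above over the 55 libraries.

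D-type cyclins are made in answer to growth signals and activate CDK4 and CDK6, which phosphorylate the retinoblastoma protein and so release E2F transcription factors. E2F then drives the E-type cyclins, which activate CDK2 and carry the cell into DNA replication. The Cip/Kip proteins bind these cyclin-kinase pairs, p21 being a classic target of p53, p27 a marker of resting cells and p57 an imprinted gene of differentiated cells. In the regenerating liver, cyclin D1 is known for its rise in hepatocytes that re-enter the cycle, and p21 as a brake on that re-entry.

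All libraries came from C57B/L6 mouse liver, sorted by flow cytometry. In normal liver there were 4 libraries each of hepatocytes (HC), biliary epithelial cells (BEC) and clonal biliary epithelial cells (cBEC), 3 of liver sinusoidal endothelial cells (LSEC), and 2 each of non progenitor ducts (NPD), endothelial cells (EC), Kupffer cells (KC, the resident macrophages), blood cells, hepatic stellate cells (HSC) and Thy1 cells. After PH, the surgical removal of part of the liver, LSEC had 5 libraries, HC had 4, HSC, KC and EC had 3 each, and the other 5 populations had 2 each. The labels name no time after surgery, and normal liver had no stated sham operation. Nothing in them says whether libraries came from separate animals, so p-values measure the spread between these libraries, which may be technical. PH cBEC library 1 carries the treatment tag of normal liver and was kept as titled, and PH KC library 3 carries no cell type tag.

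Expression is given as FPKM, fragments scaled to transcript length and to the mapped total, and no read depth goes with it, so the counting error of a value is unknown. FPKM summed to between 624726 and 1203197 over all rows of a library. Each population's defining markers were present, but the normal NPD libraries summed to more mesothelial (4821 to 5167 FPKM) than duct markers (2623 to 3850). After PH the order differed between the NPD libraries, library 1 having more duct (4776 against 3766) and library 2 more mesothelial markers (4291 against 3984). Normal Thy1 libraries summed to 2424 and 2590 in fibroblast and Thy1 markers and also to 2343 and 1570 in mesothelial, 872 and 5187 in duct and 1204 to 1322 in endothelial markers. Hepatocyte values stand apart in form: all 115054 of at least 0.01 FPKM have at most 2 decimals, against 0.000844% elsewhere. Genes abundant in hepatocytes were often listed at exactly 0 in other populations. This was counted over genes with a mean of at least 10 FPKM in most of the other populations. Of those at 300 FPKM or more in normal hepatocytes, 6.83% of the values in the other populations were 0, against 0.187% at 10 to 50 FPKM. Albumin was not among the genes counted, being listed at 0 in every library outside HC and normal cBEC. A 0 in this table is therefore reported as a listed value and not as absence. Among the 10 genes only Ccne1 was listed at 0 outside hepatocytes, in 2 of 23 normal and 6 of 24 PH libraries. Its own mean in hepatocytes was low, at 0.525 FPKM in normal and 6.735 in PH libraries.

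On the mm9 assembly, Ccnd1 (NM_007631) lies at chr7:152115835-152125830 on the minus strand, Ccne1 (NM_007633) at chr7:38883002-38892509 on the minus strand, and Cdkn1c (NM_009876), also on the minus strand, at chr7:150644243-150646955. Ccnd2 (NM_009829) lies at chr6:127075726-127101066 on the minus strand and Cdkn1b (NM_009875) at chr6:134870418-134875543 on the plus strand. Ccnd3 (NM_007632) lies at chr17:47730415-47736637 and Cdkn1a (NM_007669) at chr17:29230713-29237667, both on the plus strand. Ccne2 (NM_009830) lies at chr4:11118855-11131926, Cdk4 (NM_009870) at chr10:126500658-126504338 and Cdk6 (NM_009873) at chr5:3343892-3531005, all on the plus strand. Of the 30-base words of the Ccnd3 transcript, 15.7% also occur in the pseudogene Ccnd3-ps, against 3.66% of Cdk4, 2.83% of Cdk6 and 0.0635% of Ccnd2 shared with other genes and none in the remaining 6. How reads that match more than 1 place were counted is not given in the sources used here, so the level of Ccnd3 is uncertain to that extent.

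Cdk4 and Ccne1 both rose in NPD after PH, and the 250 bases before the start of each gene are shown because they hold different repeated elements. The sequences are RefSeq's on GRCm38.p6, a later build than the expression table's. Capitals mark each E box (CACGTG) and each GC box (GGGCGG, either strand), which do not overlap.
Cdk4 (chr10:127063285-127063534, plus strand): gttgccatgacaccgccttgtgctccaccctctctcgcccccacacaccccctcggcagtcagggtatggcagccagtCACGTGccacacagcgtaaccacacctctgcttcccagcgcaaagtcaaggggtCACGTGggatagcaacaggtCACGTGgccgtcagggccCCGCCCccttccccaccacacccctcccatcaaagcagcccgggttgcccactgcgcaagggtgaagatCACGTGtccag
Ccne1 (chr7:38107491-38107740, minus strand): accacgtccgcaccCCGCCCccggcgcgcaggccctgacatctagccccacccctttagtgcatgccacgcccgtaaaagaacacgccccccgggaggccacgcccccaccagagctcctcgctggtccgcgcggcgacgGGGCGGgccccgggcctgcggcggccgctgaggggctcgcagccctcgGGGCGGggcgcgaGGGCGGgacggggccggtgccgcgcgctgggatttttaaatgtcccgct
The Cdk4 window holds 4 E boxes, starting at positions -172, -118, -98 and -11 from the start, and 1 GC box at -80. At least 1 E box occurs in 6.02% of the 32851 promoters of the table. The Ccne1 window holds 4 GC boxes and no E box, where 32.7% of promoters hold at least 1 GC box. How many promoters hold 4 copies of either was not counted. G and C made up 64.4% of the Cdk4 and 76.0% of the Ccne1 window, against a median of 52.4% over all promoters. None of the E2F words TTTCCCGC, TTTCGCGC, TTTGCCGC and TTTGGCGC was in the windows of the 6 members the table covers (Ccnd3, Ccne1, Cdk4, Cdk6, Cdkn1a and Cdkn1b), and 1.86% of all promoters hold one. A match is a description of letters and not of a bound site.

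Levels differed between populations for nearly all of the 10 genes, as they did for most genes. In limma's F test over the 10 populations of normal liver, 9 of the 10 passed at an adjusted p under 0.05, where 93.3% of all 16139 genes tested did. The exception was Cdkn1a, with an adjusted p of 0.25 in limma, and this turned on single libraries: it was 0.0154 without normal cBEC library 1 and 0.0428 without library 3. After PH 9 of 10 passed again, against 90.1% of genes, and there the exception was Ccne2, with a limma adjusted p of 0.27, or 0.0242 without PH KC library 3. The share of members is close to the background in both cases. In bulk samples, fewer cells of a type and less RNA per cell cannot be told apart.

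**Figure D1:**
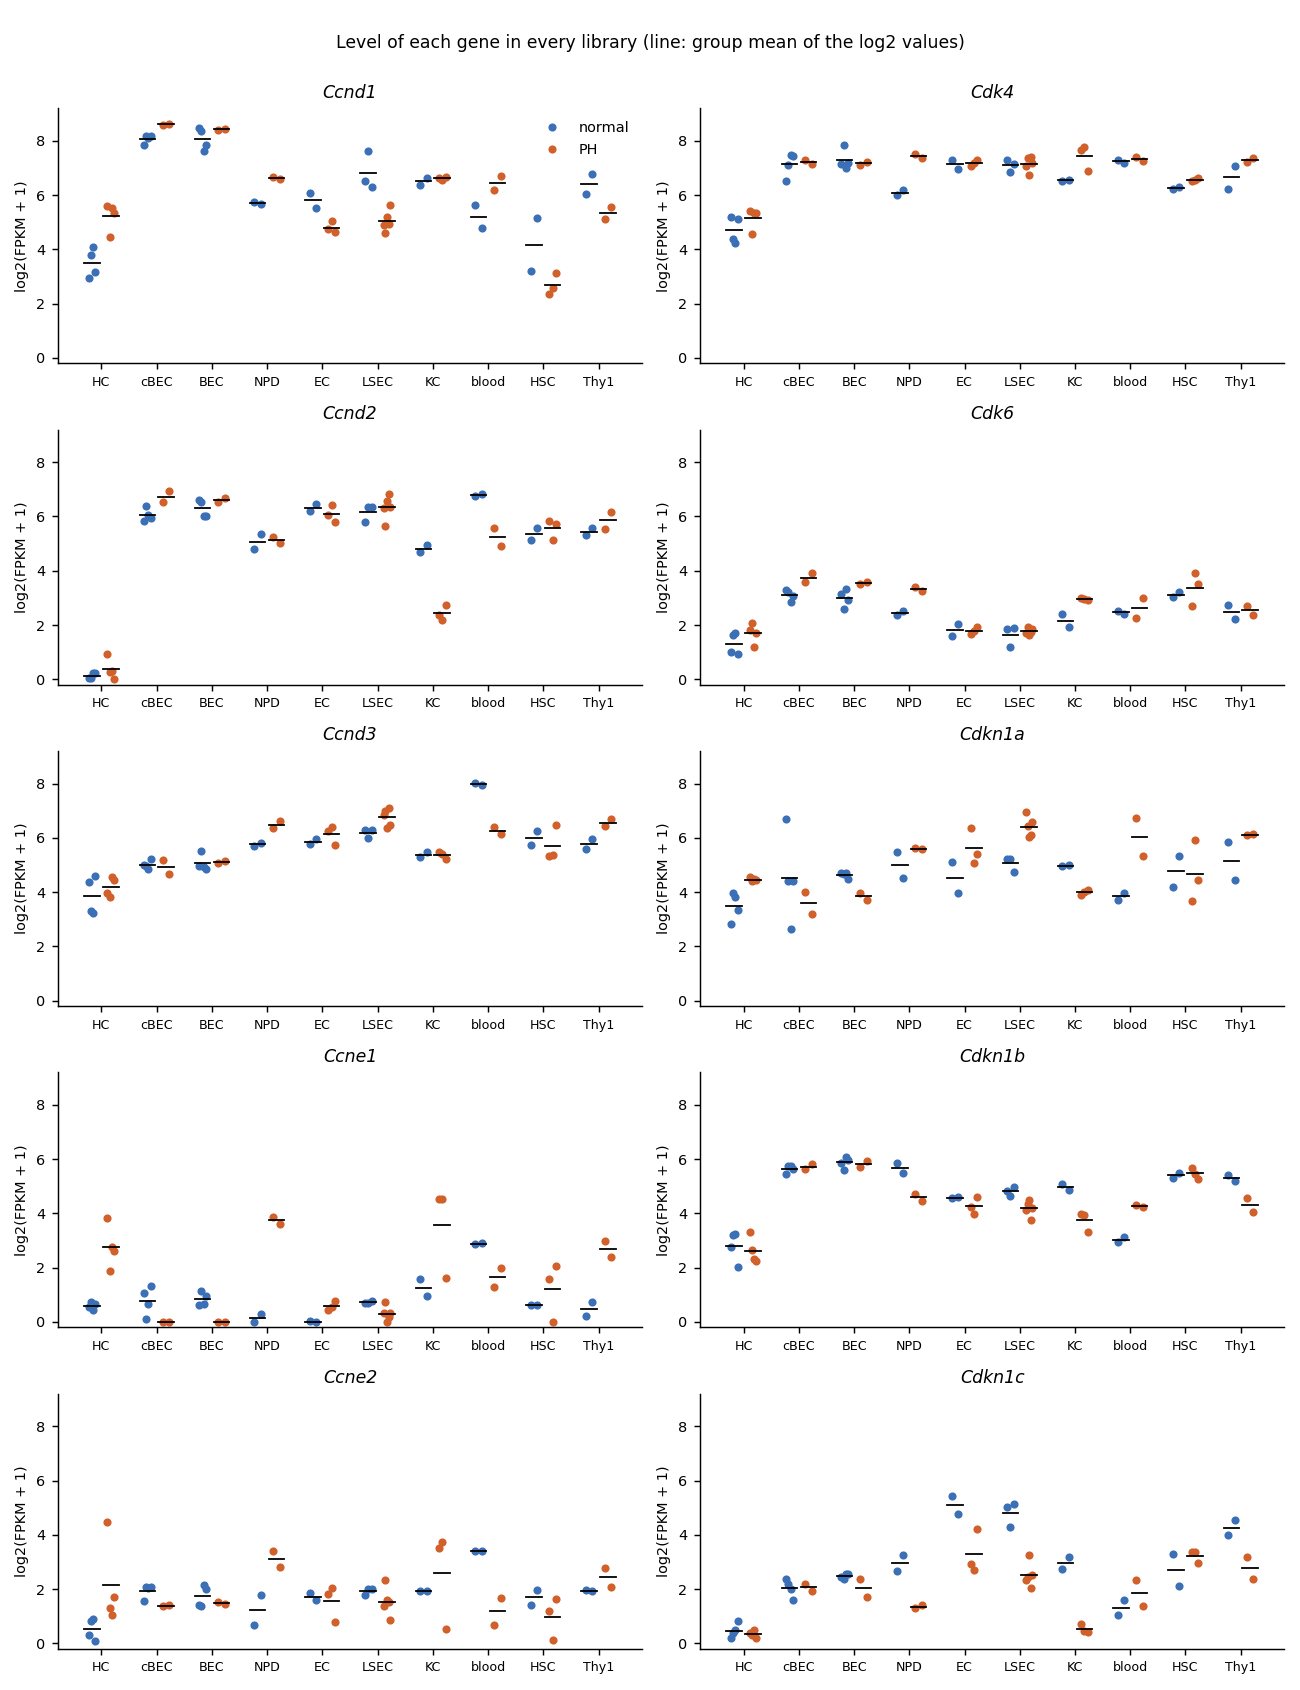
Level of each gene as log2(FPKM + 1) on the vertical axis, in every library of the 10 populations (horizontal axis), with normal libraries in blue, PH libraries in orange and the group mean as a line. Ccnd1 is highest in both biliary populations, Ccnd2 is near 0 in hepatocytes, and Cdkn1c falls from the endothelial peak after PH.

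Cyclin D1 was highest in the biliary populations BEC and cBEC. In normal BEC its FPKM was 351, 325, 198 and 232, and in normal cBEC 232, 288, 273 and 290. Every biliary library lay above every other library of normal liver, the next being LSEC with a mean of 121 ± 64.1 (SD, n = 3). NPD, the other sort labelled as ducts, was at 52.4 and 49.7, with Ccnd1 and Ccnd3 at 37.2% and 38.8% of its summed D cyclin FPKM (means, n = 2). Its duct markers summed to 2623 to 3850 FPKM, against 15000 to 21940 in normal BEC and 10230 to 20150 in normal cBEC. The part of this lower duct content was not tested. At the other end stood HSC, with 8.10 and 34.7, and HC, with a mean of 10.9 ± 4.32 (SD, n = 4), whose ranges overlapped. After PH the biliary libraries were again highest, at 381 and 397 in cBEC and 340 and 347 in BEC, and the 3 HSC libraries were below all others, at 4.16, 4.98 and 7.78.

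Cyclin D2 and cyclin D3 had other peaks. In normal liver both were highest in blood cells, Ccnd2 at 107 and 114 FPKM and Ccnd3 at 260 and 244, each above every library of the other populations. Hepatocytes held almost no Ccnd2: it lay between 0.03 and 0.18 FPKM in normal and between 0.01 and 0.93 in PH libraries, where every other population was above 3 FPKM. Ccnd3 was also lowest in hepatocytes, at 8.37 to 23.0 FPKM. FPKM is scaled to transcript length, so the 3 genes can be set beside each other: Ccnd1 made up 73.5% ± 1.61 (SD, n = 4) of the summed D cyclin FPKM in normal cBEC and 9.32% ± 3.42 (SD, n = 2) in normal blood, where Ccnd3 held 63.0% ± 0.728 (SD, n = 2).

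The E cyclins were low almost everywhere in normal liver. Blood cells were the exception, with Ccne1 at 6.28 and 6.55 FPKM and Ccne2 at 9.68 and 9.50, above all other normal libraries. Ccne1 was at most 1.96 FPKM and Ccne2 at most 3.45 in any other normal library. After PH the highest means of both were in KC, NPD, HC and Thy1, in that order, and each overlapped the next. NPD and Thy1 did not overlap each other in either gene.

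Of the 2 kinases that D cyclins activate, Cdk4 was the abundant one. Its FPKM was lowest in HC in both conditions, with a mean of 26.6 ± 9.06 (SD, n = 4) in normal and 35.8 ± 8.67 (SD, n = 4) in PH libraries, below every other library of the same condition. From BEC down to KC, 7 populations of normal liver followed each other with overlapping Cdk4 ranges, between means of 159 and 92.3. Cdk6 was far lower, between a mean of 1.55 in HC and 7.73 in HSC of normal liver, where each population's range overlapped the next.

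The inhibitors had different peaks. Cdkn1c was highest in endothelial and Thy1 cells of normal liver, where its FPKM was 41.7 and 26.3 in EC, 31.7, 18.4 and 34.1 in LSEC and 14.8 and 22.4 in Thy1, all above the libraries of the other populations. Cdkn1b was highest in BEC, with a mean of 58.5 ± 8.06 (SD, n = 4), and lowest in blood and HC, whose ranges overlapped, at 6.68 to 7.79 and 3.11 to 8.35. Cdkn1a varied within normal cBEC from 5.27 to 102 FPKM. The library at 102 summed to 416 FPKM in mesothelial markers, against 72.8 to 106 in the other normal cBEC libraries. It was also highest in endothelial (218 against 3.70 to 52.0), Kupffer (98.4 against 0.641 to 69.2) and fibroblast and Thy1 markers (286 against 41.95 to 64.0). In sinusoidal endothelial markers it was not (124 against 12.2 to 143). Its duct markers summed to 10230, against 16180 to 20150, and the part of these markers was not tested. After PH the highest mean of Cdkn1a was in LSEC, at 86.95 ± 24.3 (SD, n = 5).

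PH was then compared with normal liver within each population, with limma on log2(FPKM + 1) over all genes with at least 1 FPKM in as many libraries as the smaller group has. Of 100 pairs of gene and population 95 could be tested, and 22 passed an adjusted p under 0.05, 10 higher and 12 lower after PH, in 5 populations. In HC 2 of 8 passed, both higher, where 6.19% of all genes passed (1.78% higher and 4.41% lower). In NPD 5 of 10 passed, 3 higher and 2 lower, where 15.2% of all genes passed (9.65% higher and 5.51% lower). In LSEC 3 of 9 passed, 1 higher and 2 lower, against 8.46% of genes (4.15% higher and 4.31% lower).

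In KC 5 of 10 passed, 1 higher and 4 lower, against 36.8% of genes (16.7% higher and 20.1% lower), and in blood 7 of 10 passed, 3 higher and 4 lower, against 64.0% (24.3% higher and 39.7% lower). The counts of both directions together are near their backgrounds in these latter populations. By direction, the share that fell in KC (4 of 10) was above the 20.1% of all genes, a difference that was not tested. With limma, no member passed in cBEC (0.0681% of genes), BEC (1.81%, with 0.233% higher and 1.57% lower), EC (0.0249%), HSC (0.00853%) or Thy1 (0.00747%). At an unadjusted limma p under 0.05, 3 of 10 members did so in cBEC, 2 of 9 in BEC, 2 of 9 in EC, 1 of 10 in HSC and 5 of 10 in Thy1. Among all genes, 1346 of 13225 did so in cBEC, 2097 of 12851 in BEC and 1297 of 12064 in EC. In HSC it was 995 of 11729 and in Thy1 2417 of 13389. In a single limma fit of all 20 groups, which shares the spread between populations, 0, 0, 1, 1 and 3 members passed in these 5 populations. The share of all genes passing in that fit was not counted.

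The change after PH differed between populations for 8 of the 10 genes, by an F test of the interaction over all 55 libraries in limma, where 47.8% of all genes passed. The exceptions were both kinases, Cdk4 with an adjusted p of 0.0534 and Cdk6 with 0.405 in limma. That of Cdk4 was under 0.05 without any 1 of 10 libraries, lowest (0.019) without PH KC library 3. The smallest adjusted p values were those of Ccnd1 (2.3e-07), Ccnd2 (2.36e-07), Cdkn1c (6.42e-07) and Ccne1 (6.55e-07), by the same limma test.

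**Figure D2:**
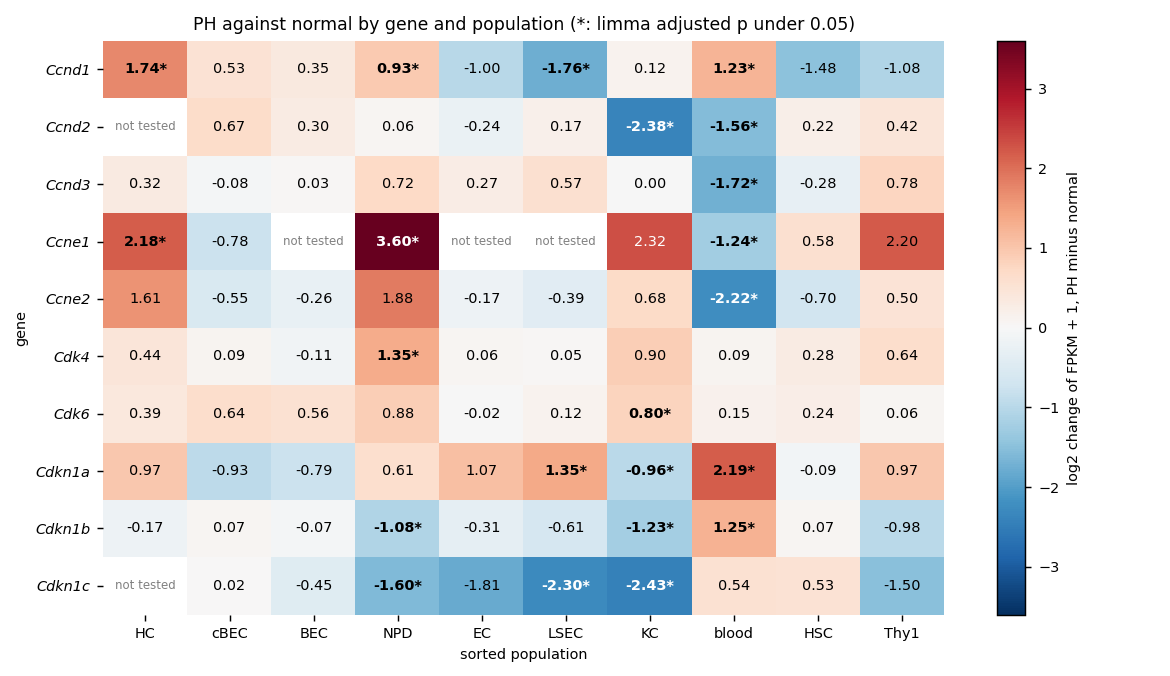
Change of each gene (vertical axis) in each population (horizontal axis) after PH, as the difference of mean log2(FPKM + 1), PH minus normal. Red is higher and blue lower after PH, a star marks a limma adjusted p under 0.05, and Ccnd1 is red in HC, NPD and blood and blue in LSEC.

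Cyclin D1 moved in opposite directions in hepatocytes and sinusoidal endothelium. In HC it was 6.73, 12.97, 15.9 and 7.88 FPKM in normal and 47.2, 21.1, 45.6 and 39.7 in PH libraries. The groups did not overlap, PH library 2 being the lowest of its group. The log2 difference was 1.74 ± 0.33 (SE), with a limma adjusted p of 0.0145.

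In LSEC the order was turned. Ccnd1 was 90.6, 195 and 78.1 FPKM in normal and 29.1, 23.1, 35.3, 29.8 and 49.0 in PH libraries. All 5 PH libraries were below all 3 normal ones, and normal library 2 was far above its group. The log2 difference was -1.76 ± 0.31 (SE), with a limma adjusted p of 0.0106. Ccnd1 then made up 15.0% ± 4.86 (SD, n = 5) of the summed D cyclin FPKM in LSEC, against 43.9% ± 12.5 (SD, n = 3) before.

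The summed FPKM of the 7 sinusoidal endothelial markers was 5696 to 10740 in normal and 2008 to 6468 in PH LSEC, and that of the 7 endothelial markers 4060 to 4679 and 3488 to 4610. The part of these markers in the LSEC results was not tested. With the replicate number of the titles as a block, the limma adjusted p in LSEC was 0.147 for Ccnd1, 0.103 for Cdkn1a and 0.0817 for Cdkn1c, on the numbers 1 to 3 that both groups hold.

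Ccnd1 also rose in NPD, from 52.4 and 49.7 to 99.6 and 96.4 FPKM, by 0.93 ± 0.15 (SE) on the log2 scale with a limma adjusted p of 0.0227. The libraries of each group lay close together and the groups did not overlap. In blood it was 48.8 and 26.5 in normal and 72.0 and 102 in PH libraries, a log2 difference of 1.23 ± 0.35 (SE) with a limma adjusted p of 0.0317. In the single limma fit the NPD call was lost, at 0.158.

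In 3 further populations every PH library was below every normal one, but no difference passed. Ccnd1 was 66.3 and 45.6 FPKM in normal and 25.8, 32.0 and 23.8 in PH EC (limma adjusted p 0.231). It was 65.6 and 109 in normal and 33.8 and 45.9 in PH Thy1 cells (limma adjusted p 0.234), and the normal library at 109 was the one with a duct marker sum of 5187, whose part was not tested. In HSC the values were 8.10 and 34.7 against 4.16, 4.98 and 7.78 (limma adjusted p 0.589, and 0.00798 in the single fit). The normal HSC library at 34.7 summed to 1063 FPKM in Kupffer and 1101 in sinusoidal endothelial markers, against 83.1 and 205 in the other. PH HSC libraries summed to 0.515 to 65.4 and 63.3 to 109, and the part of these markers was not tested. Biliary cells, already highest in Ccnd1, had adjusted p values of 0.431 in cBEC and 0.602 in BEC by limma.

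Cyclin D2 fell in Kupffer cells. It was 24.9 and 29.6 FPKM in normal and 4.18, 3.54 and 5.66 in PH KC, with no overlap, a log2 difference of -2.38 ± 0.21 (SE) and a limma adjusted p of 0.00176. Its share of the summed D cyclin FPKM went from 17.2% to 3.11% (means of n = 2 and n = 3), while Ccnd1 in KC lay between 82.5 and 101.4 in all 5 libraries. In the same KC libraries the 7 sinusoidal endothelial markers summed to 3554 to 4889 FPKM in normal and 320 to 575 in PH libraries, and the 8 Kupffer markers to 18370 to 20150 and 36530 to 37800. The part of these endothelial markers in the KC results was not tested. Ccnd2 also fell in blood, from 107 and 114 to 46.9 and 28.9, and Ccnd3 fell there from 260 and 244 to 83.7 and 68.9, with limma adjusted p values of 0.00661 and 0.00175.

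Ccnd3 passed in no other population. In LSEC it was 76.8, 62.4 and 76.9 FPKM in normal and 113, 127, 81.0, 137 and 87.6 in PH libraries. All PH libraries were higher than all normal ones, with a limma adjusted p of 0.115. In NPD it was 51.4 and 55.4 against 81.2 and 96.9, with a limma adjusted p of 0.0512.

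**Figure D3:**
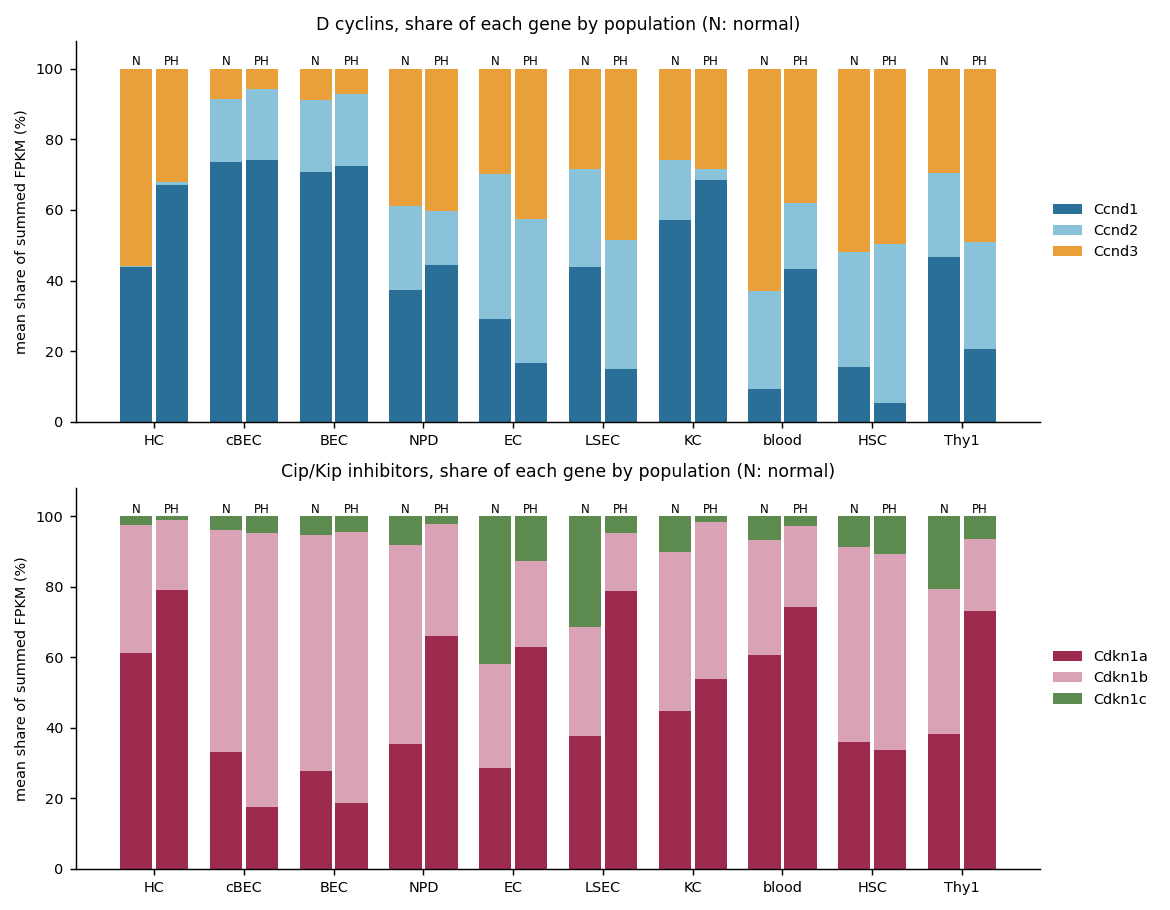
Mean share of each gene in the summed FPKM of its family (vertical axis, percent) in normal (N) and PH libraries of each population (horizontal axis), for D cyclins above and Cip/Kip inhibitors below. In LSEC the Ccnd1 share goes from 43.9% to 15.0% and the Cdkn1c share from 31.5% to 4.72%.

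Cyclin E1 rose in hepatocytes and in non progenitor ducts. In HC it was 0.47, 0.68, 0.37 and 0.58 FPKM in normal and 13.2, 2.70, 5.84 and 5.2 in PH libraries, so every PH library was above every normal one. The log2 difference was 2.18 ± 0.35 (SE), with a limma adjusted p of 0.00682. In NPD it was listed at 0 and at 0.227 in normal and at 13.5 and 11.4 in PH libraries, a difference of 3.6 ± 0.28 (SE) on the log2(FPKM + 1) scale with a limma adjusted p of 0.00785. With normal values so low, the size of this difference depends on the constant added, and it was 6.11 with 0.1 in place of 1.

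In Kupffer cells the call turned on 1 library. Ccne1 was 1.96 and 0.926 FPKM in normal KC and 22.4, 22.3 and 2.11 in PH KC, library 3 being the low one. The difference of 2.32 ± 0.95 (SE) had a limma adjusted p of 0.11. Without PH KC library 3 it was 3.29, with a limma adjusted p of 0.000321.

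The same library was low in Ccne2, at 0.456 against 10.6 and 12.4 FPKM in the other PH KC libraries and 2.78 and 2.81 in the normal ones. It was also low in the list of 25 S phase genes (enzymes and loaders of DNA replication), which summed to 544 FPKM in it, to 2345 and 2429 in the other PH libraries and to 323 and 306 in the normal ones. For 20 mitosis genes it stood at 23.6, against 381 and 373 in the other PH and 105 and 93.2 in the normal libraries.

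Hepatocytes had a like spread in Ccne2. It was 0.25, 0.75, 0.88 and 0.05 FPKM in normal and 21.3, 1.45, 1.08 and 2.26 in PH libraries, so the groups did not overlap but library 1 was far above the rest. The limma adjusted p was 0.188. The S phase sum was also highest in PH HC library 1, at 665 FPKM against 102 to 168 in the other 3 PH libraries and 71.3 to 89.6 in the normal ones. The mitosis sum was 305 in that library and 12.1 to 15.1 in the other PH libraries, where normal libraries had 16.2 to 23.3.

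In Thy1 cells Ccne1 was 0.165 and 0.687 FPKM in normal and 6.91 and 4.21 in PH libraries, which did not overlap. The difference of 2.2 ± 0.42 (SE) had a limma adjusted p of 0.145, and 0.00644 in the single fit. Both normal blood libraries were above both PH ones, at 6.28 and 6.55 against 1.47 and 2.98 for Ccne1 and at 9.68 and 9.50 against 0.612 and 2.18 for Ccne2. These differences passed, with limma adjusted p values of 0.0177 and 0.00645. In the single fit that of Ccne1 in blood was lost, at 0.0626.

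In biliary cells Ccne1 was listed at 0 in both PH cBEC and both PH BEC libraries. The limma adjusted p was 0.602 in cBEC, and BEC was not tested because the values were too low. In normal liver it was 1.08, 0.0705, 0.574 and 1.51 FPKM in cBEC and 0.539, 1.19, 0.594 and 0.918 in BEC. The mean in PH hepatocytes was 6.74 FPKM and in normal ones 0.525. Whether these zeros go with the level in hepatocytes was not tested for this gene, and no fold is given.

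Over the 20 group means of log2(FPKM + 1), Ccne1 followed the mean of the S phase list with r = 0.841 and Ccne2 with r = 0.776, where Ccnd1 had r = 0.327 and Cdkn1c r = -0.444. These are descriptions of genes measured in the same libraries, which hence share their purity and scaling. The genes whose group means were most like those of Ccne1, of 12972 candidates, were Cdc6 (r = 0.932), Aunip (0.926) and Dtl (0.917). Cdc6, which loads the replicative helicase, is itself in the S phase list, and Dtl is a ubiquitin ligase adaptor of S phase. For Ccne2 they were Tcf19 (0.901), Ska3 (0.871) and the spindle motor Kif11 (0.87), and for Ccnd1 they were Ing2 (0.924), the growth factor Hbegf (0.91) and Rflna (0.905).

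**Figure D4:**
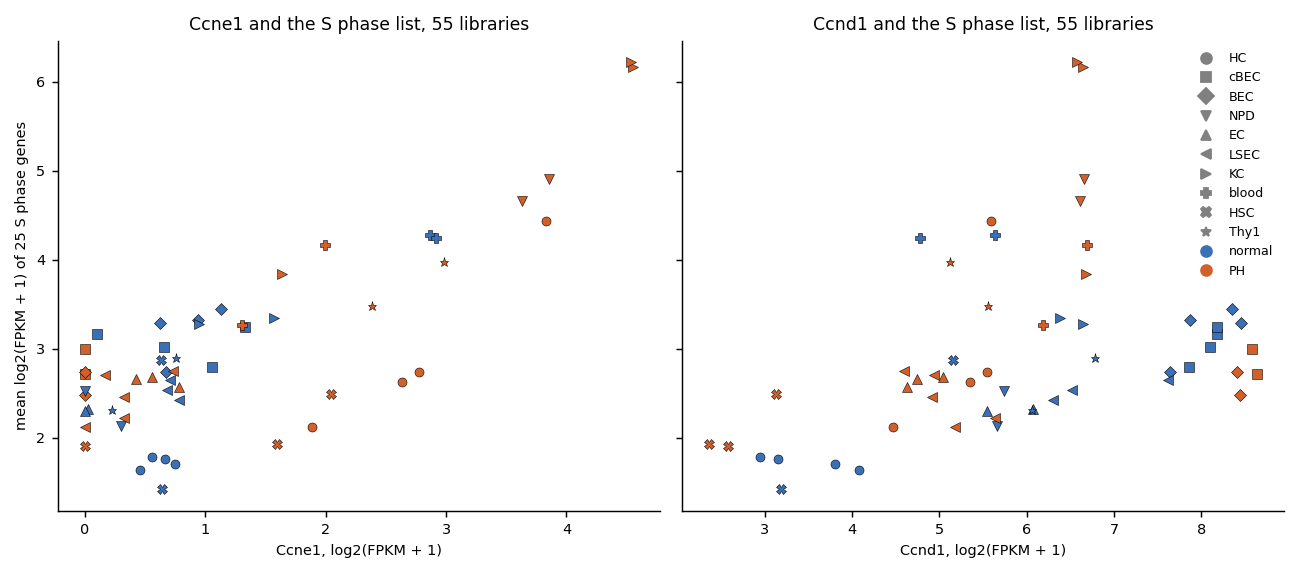
Mean log2(FPKM + 1) of 25 S phase genes (vertical axis) against log2(FPKM + 1) of Ccne1 and of Ccnd1 (horizontal axes) in 55 libraries, with a marker shape per population, normal in blue and PH in orange. Libraries high in Ccne1, such as PH KC libraries 1 and 2 at 22.4 and 22.3 FPKM, are high in the S phase list, while the biliary libraries are highest in Ccnd1 but not in that list.

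Of the kinases, Cdk4 rose in NPD and Cdk6 in KC. In NPD Cdk4 went from 63.1 and 71.8 to 183 and 163 FPKM, up by 1.35 ± 0.18 (SE) on the log2 scale with a limma adjusted p of 0.0152. In KC it was 90.8 and 93.9 in normal and 199, 217 and 119 in PH libraries, with library 3 again lowest but above both normal ones. That difference had a limma adjusted p of 0.0514, and 0.000375 without PH KC library 3. Cdk6 rose in KC, from 4.32 and 2.78 to 6.99, 6.85 and 6.54 FPKM, by 0.80 ± 0.20 (SE) with a limma adjusted p of 0.0315. In NPD Cdk6 was 4.15 and 4.75 against 9.51 and 8.55, with a limma adjusted p of 0.0508.

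In hepatocytes Cdk4 showed a split among the libraries that the labels do not describe. It was 35.3 and 33.5 FPKM in normal HC libraries 1 and 4 and 19.7 and 17.9 in libraries 2 and 3. Over all genes, deviations from the group mean correlated at 0.72 between libraries 1 and 4 and at 0.77 between 2 and 3, and at -0.82 to -0.91 across these pairs. Ccnd3 was split the same way, at 19.9 and 23.0 against 8.80 and 8.37, and Ccnd1 the other way, at 6.73 and 7.88 against 12.97 and 15.9.

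The hepatocyte results were therefore also computed without each pair, a choice made after seeing the data. Without libraries 2 and 3, Ccnd1 had a difference of 2.19 and a limma adjusted p of 0.0212, and Ccne1 2.17 and 0.0615. Without libraries 1 and 4, Ccnd1 had 1.29 and 0.0839, and Ccne1 2.18 and 0.0422. Leaving out PH HC library 4 alone moved the limma adjusted p of Ccnd1 to 0.0528, and with the replicate number as a block it was 0.0538. The direction held in each of these fits.

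Among the inhibitors, p57 fell in 3 populations. In LSEC Cdkn1c was 31.7, 18.4 and 34.1 FPKM in normal and 4.01, 4.46, 8.44, 3.11 and 4.70 in PH libraries, with no overlap. The log2 difference was -2.30 ± 0.29 (SE), with a limma adjusted p of 0.00247. In KC it was 5.72 and 8.09 against 0.654, 0.372 and 0.334 FPKM, a difference of -2.43 ± 0.23 (SE) with a limma adjusted p of 0.00187. In NPD it was 5.38 and 8.47 against 1.47 and 1.66, with -1.60 ± 0.30 (SE) and a limma adjusted p of 0.0298.

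EC and Thy1 cells, the other populations where Cdkn1c was high in normal liver, also had all PH libraries below all normal ones. The values were 41.7 and 26.3 against 6.62, 5.52 and 17.7 FPKM in EC, with a limma adjusted p of 0.271. They were 14.8 and 22.4 against 7.98 and 4.11 in Thy1 cells, with a limma adjusted p of 0.183. In the single limma fit both passed, at 0.00392 and 0.00943. Sinusoidal endothelial markers in EC summed to 3329 to 6797 FPKM in normal and 2143 to 4187 in PH libraries. Endothelial markers there summed to 4092 to 4180 and 3511 to 4158. In Thy1 cells the fibroblast and Thy1 markers summed to 2424 to 2590 and 703 to 1678. Endothelial markers rose there, from 1204 to 1322 up to 1666 to 3215. Their part in the EC and Thy1 results was not tested. In HSC, at 8.75 and 3.35 in normal and 9.25, 9.25 and 6.84 in PH libraries, the groups overlapped.

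p21 rose in LSEC and blood and fell in KC. In LSEC Cdkn1a was 35.9, 36.5 and 26.0 FPKM in normal and 124, 84.6, 64.4, 67.1 and 94.3 in PH libraries. The groups did not overlap, and the difference of 1.35 ± 0.23 (SE) had a limma adjusted p of 0.00873, or 0.0744 in the single fit. In the summed Cip/Kip FPKM of LSEC, the mean share of Cdkn1a was 37.6% in normal and 78.7% in PH libraries, and that of Cdkn1c 31.5% and 4.72%.

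Cdkn1a fell in KC, from 29.8 and 30.8 to 13.98, 15.3 and 16 FPKM, a log2 difference of -0.96 ± 0.13 (SE) with a limma adjusted p of 0.00416, or 0.262 in the single fit. In blood it rose from 12.1 and 14.8 to 107 and 38.9, with a difference of 2.19 ± 0.49 (SE) and a limma adjusted p of 0.016. In HC it was 6.17, 14.7, 13.1 and 9.24 in normal and 22.3, 20.1, 21.4 and 20.6 in PH libraries. All PH libraries were above all normal ones, yet the difference of 0.97 ± 0.25 (SE) had a limma adjusted p of 0.0544. Without normal HC libraries 2 and 3 it was 1.36, with a limma adjusted p of 0.0309, and without libraries 1 and 4 it was 0.57, with 0.188.

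In BEC Cdkn1a was 25.2, 24.2, 25.1 and 21.3 in normal and 14.8 and 12.2 in PH libraries, with no overlap and a limma adjusted p of 0.0573. The genes most like Cdkn1a over the 20 group means were Kcns3 (r = 0.912), Thbd (0.863), which encodes thrombomodulin of the vessel wall, and Adamts4 (0.834). Those most like Cdkn1c were Rbbp9 (0.888), Dock6 (0.879) and Ltbp4 (0.878).

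p27 fell in NPD and KC. In NPD Cdkn1b was 57.0 and 43.5 FPKM in normal and 25.4 and 21.0 in PH libraries, a difference of -1.08 ± 0.20 (SE) with a limma adjusted p of 0.0309. In KC it was 32.9 and 28.1 against 14.7, 14.4 and 8.91, with -1.23 ± 0.24 (SE) and a limma adjusted p of 0.0147. It rose in blood, from 6.68 and 7.79 to 19.0 and 18.1, with a limma adjusted p of 0.00353. In LSEC it was 27.3, 23.9 and 30.5 against 16.7, 19.6, 21.7, 12.7 and 17.5, with no overlap and a limma adjusted p of 0.0667.

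In NPD and KC, p27 and p57 both fell. The NPD and blood results rest on 2 libraries a group. In NPD all 5 calls were lost in limma without either PH library (adjusted p 0.203 to 0.362), with log2 differences between 0.90 and 0.95 for Ccnd1, 3.48 and 3.71 for Ccne1, 1.26 and 1.43 for Cdk4, -0.94 and -1.21 for Cdkn1b and -1.55 and -1.65 for Cdkn1c. Kupffer markers in NPD summed to 146 to 326 FPKM in normal and 10.3 to 14.4 in PH libraries, mesothelial markers to 4821 to 5167 and 3766 to 4291, and duct markers to 2623 to 3850 and 3984 to 4776. Their part in the NPD results was not tested. In KC the call of Cdk6 was lost without either normal library or PH library 1 or 2 (limma adjusted p 0.0511 to 0.137), and that of Cdkn1b without normal library 1 (0.121) or 2 (0.0838).

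The blood libraries differed in their makeup between conditions. The 8 lymphocyte markers summed to 1726 to 1782 FPKM in normal and 37.2 to 82.8 in PH blood, and the 7 neutrophil markers to 3733 to 4053 and 954 to 2329. The 8 Kupffer markers summed to 729 to 1116 in normal and 13230 to 22740 in PH blood, and the sinusoidal endothelial markers to 771 to 862 and 2779 to 6134. Their part in the 7 blood results was not tested. In limma, each of the 7 calls was lost without normal blood library 1 or without library 2 (adjusted p 0.0506 to 0.162), and that of Ccnd1 also without PH library 1 (0.0562) or 2 (0.139), where the Ccnd1 difference ranged from 0.80 to 1.66. The median log2 difference of all genes in blood was -0.31.

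The genes around these 10 were read from lists, whose counts stand beside the share of all genes called in the same population and direction. Of the G1 pathway partners (retinoblastoma family, E2F, CDK2, the CDK-activating kinase, Myc and regulators of the members), 12 of 31 rose and 2 fell in NPD (all genes 9.65% and 5.51%), with a median log2 difference of 0.54 against 0.09 for all genes. They included E2f8, an E2F of the late cycle, listed at 0 in both normal NPD libraries and at a mean of 4.88 FPKM after PH (limma adjusted p 0.0162), and E2f3 (log2 difference 2.0, limma adjusted p 0.0172). Rbl2, the retinoblastoma relative p130 of resting cells, fell in NPD, with a log2 difference of -1.35 (limma adjusted p 0.013). In KC 6 of 31 rose and 2 fell (all genes 16.7% and 20.1%, medians 0.25 and -0.04), so the share that rose was near that of all genes. Among them was Cks1b, a partner of the ligase that degrades p27, with a log2 difference of 2.19 (limma adjusted p 0.0239).

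In HC 2 of 26 partners rose and 1 fell (all genes 1.78% and 4.41%, medians 0.18 and -0.07). Myc rose there from 1.51 to 5.997 FPKM in the mean, a log2 difference of 1.46 with a limma adjusted p of 0.0309. Dyrk1b, a kinase that holds cells in quiescence, fell, with a log2 difference of -1.25 and a limma adjusted p of 0.0197. It fell too in NPD, at -1.04 (limma adjusted p 0.0421), and in KC, at -2.18 (limma adjusted p 0.00182). In LSEC 0 of 29 rose and 1 fell (all genes 4.15% and 4.31%, medians -0.23 and -0.03). In blood 5 of 31 rose and 11 fell (all genes 24.3% and 39.7%, medians -0.23 and -0.31). Of 4 INK4 inhibitors, which bind CDK4 and CDK6 directly, all 4 were tested in blood, where 1 rose and 2 fell (all genes 24.3% and 39.7%). Cdkn2a was higher (log2 difference 1.26, limma adjusted p 0.00545) and Cdkn2c and Cdkn2d lower (-1.50 and -1.57, limma adjusted p 0.0079 and 0.00365). In LSEC 3 were tested and 1 was lower (all genes 4.31%). Elsewhere 1 to 3 were tested and none passed in limma.

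S phase genes rose in NPD, KC and HC. The count was 22 of 25 genes in NPD (median 2.40 against 0.09 for all genes, of which 9.65% rose), 10 of 25 in KC (2.01 against -0.04, with 16.7%) and 7 of 23 in HC (1.22 against -0.07, with 1.78%), and none fell there. In blood 2 of 25 rose and 10 fell (median -0.80 against -0.31), where 24.3% and 39.7% of all genes did. In HC these included the replicative helicase subunits Mcm6 (log2 difference 2.34, limma adjusted p 0.0342) and Mcm5 (2.17, limma adjusted p 0.0181). In LSEC 1 of 23 fell (all genes 4.31%), the ribonucleotide reductase subunit Rrm2. Of the mitosis list, 20 of 20 genes fell in blood (all genes 39.7%), with a median of -2.38 against -0.31, and 11 of 17 in LSEC (all genes 4.31%), with a median of -1.47 against -0.03. Ccnb2, a cyclin of mitosis, was at a mean of 10.4 FPKM in normal and 0.794 in PH LSEC (limma adjusted p 0.00294). In BEC 4 of 16 mitosis genes fell (all genes 1.57%), in NPD 6 of 20 rose (all genes 9.65%), and in KC none of 20 passed in limma, nor any of the 7 tested in HC. Kupffer markers in BEC summed to 93.0 to 371 FPKM in normal and 0.622 to 4.41 in PH libraries. Sinusoidal endothelial markers there summed to 96.6 to 358 and 9.46 to 13.1, and duct markers to 15000 to 21940 and 18880 to 20410. Their part in the BEC results, that of Cdkn1a included, was not tested.

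Other p53 targets were counted beside Cdkn1a. In LSEC, where Cdkn1a rose, none of 18 rose and 3 fell, with a median of -0.27 against -0.03 for all genes, of which 4.15% rose and 4.31% fell. Gadd45a, a growth arrest gene, had a log2 difference of -1.56 (limma adjusted p 0.0055) and Trp53inp1 one of -1.22 (limma adjusted p 0.0106). In HC none of 15 rose and 2 fell (all genes 1.78% and 4.41%), the cell death gene Bbc3 at -2.21 (limma adjusted p 0.000535) and the kinase gene Plk2 at -1.22 (limma adjusted p 0.0405). In KC, where Cdkn1a fell, 11 of 18 fell and 2 rose (all genes 20.1% and 16.7%, medians -1.0 and -0.04), with Plk2 at -4.14 (limma adjusted p 0.00278). In blood, where Cdkn1a rose, 2 of 18 rose and 8 fell (all genes 24.3% and 39.7%, medians -0.75 and -0.31). Cdkn1a itself is not in the list.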

How the data were processed

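RNA was sequenced from 55 libraries of sorted mouse liver cells. The deposited table gives FPKM per RefSeq transcript with a symbol, computed by the authors. The submitters' processing notes name CASAVA 1.8.2, Bowtie 1.0.0 and the mm9 build, and the counting tool is not given in the sources used here. Of 36141 rows, 1 per symbol was kept (highest mean over all libraries). Values were compared as log2(FPKM + 1) with limma 3.58.1 in R 4.3.3 (trend and robust empirical Bayes, two-sided, Benjamini-Hochberg over all genes tested, adjusted p under 0.05), tested on simulated data first. Each PH comparison used its own population's libraries. The F tests took genes with at least 1 FPKM in 2 libraries. Pseudocount, filter, scaling, row choice, single fit, replicate block and libraries left out were varied.

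All 10 genes are named. List genes are named at an adjusted p under 0.05 and a log2 difference of at least 1, up to the 3 largest each way. Like genes are the 3 with the highest correlation of group means among genes with a mean of at least 1 FPKM. Members, predicted genes, microRNAs, snoRNAs, olfactory receptors and immunoglobulin or T cell receptor segments were left out there. Members and lists were chosen with earlier results of these data known. Tables and figures were made with Python 3.11.15, pandas 2.3.3 and matplotlib 3.10.9.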

Additional observations from a re-analysis of the deposited data

Results flagged for a closer look

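The change after PH differed between populations for 8 genes, by limma's interaction F test over 55 libraries. The adjusted p was 2.3e-07 for Ccnd1, 2.36e-07 for Ccnd2, 0.00159 for Ccnd3, 6.55e-07 for Ccne1 and 0.0115 for Ccne2. It was 0.0153 for Cdkn1a, 0.000108 for Cdkn1b and 6.42e-07 for Cdkn1c, by the same limma test.

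In groups of 4 or 5 libraries, 50 sets of values were searched for a single distant library, and 5 held one where chance gives about 2.5 (1 in 20). Normal cBEC library 1 was high in Cdkn1a, at 102.3 FPKM, and low in Ccne2, at 1.987. It also had the highest mesothelial, endothelial, Kupffer and fibroblast marker sums and the lowest duct marker sum of its group. PH HC library 1 was high in Ccne2, at 21.32, and PH HC library 2 low in Cdk4, at 22.94. Normal BEC library 2 was high in Ccnd3, at 45.27.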

How the results depend on the processing

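No called difference of a gene in a population changed direction under any alternative run. The 22 calls of PH against normal became 23 with a pseudocount of 0.1, 18 with no filter, 24 under quantile normalization, under upper-quartile scaling and with the mean over a symbol's rows, and 26 in the single fit. They ranged from 15 to 25 when each library was left out in turn. Limited to genes under 10 FPKM in hepatocytes, which leaves out Ccnd1, Ccnd3, Cdk4 and Cdkn1a, there were 14 calls, and the F tests called 6 in normal liver, 5 after PH and 5 for the interaction. Left out in turn, the libraries gave 9 to 10, 9 to 10 and 8 to 9 calls in these F tests. With no filter, limma lost Ccnd1 (adjusted p 0.0504), Cdkn1b (0.0721) and Cdkn1c (0.0662) in NPD and Ccnd1 in blood (0.0645).

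With the replicate block the calls were 23, and 4 of the 22 were lost, all in HC and LSEC. Same-numbered libraries correlated between -0.672 and 0.574 in their deviations over 23 pairs, and 11 of them correlated best with their own number. These were all pairs of cBEC, BEC, NPD, HSC and Thy1, and HC library 2. In groups of 2 libraries the deviations mirror each other, so this cannot tell whether same-numbered libraries share more than a number. The depth behind FPKM is unknown, which limits what can be said of values near 0.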
